A study of Mus musculus with 16 samples.

Results

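Embryoid bodies of a Wdr5 knockout in which human WDR5 was switched on late were compared with wild-type (WT) embryoid bodies. The comparison uses 8 of the 16 samples, those whose labels give the genotype WT or the T48h rescue, and these make 2 libraries a side. The sample titles name replicates 1 and 2 of each group, each in runs 1 and 2, while the value columns carry neither. All samples came from mouse embryonic stem cells with GFP knocked in at Rx (Rax), grown by SFEBq, a serum-free suspension culture of quickly reaggregated cells, in GMEM with 5% knockout serum replacement and with 2% Matrigel added on day 1, and belong to day 6 of culture. The WT group (untreated) carries no induced WDR5. The T48h rescue is Wdr5 KO with inducible human WDR5 and received doxycycline, the inducing drug, at T48h. The other 2 groups, used here only where they show what is particular to the late rescue, are the same KO without doxycycline and the KO with doxycycline at T12h (T12h rescue). The T48h rescue and WT therefore differ in genotype, in the inducible gene and in doxycycline at once, and these cannot be told apart in this comparison. The labels do not say how many KO lines or clones were used.

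WDR5 is a WD40-repeat protein that the COMPASS/MLL complexes, which methylate lysine 4 of histone H3, share as a core subunit. SFEBq culture is used to lead embryonic stem cells through neural ectoderm towards the eye field, the group of anterior neural cells that expresses Rax, Pax6, Six3 and Lhx2. Lateral plate and cardiac mesoderm, which form heart muscle, vessels and mesenchyme and respond to BMP signals, are marked by Hand1, Hand2, the Gata4 family and Tbx20. Markers of both fates and of the other cell types that such aggregates can hold were therefore examined.

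The columns fell into pairs that differed by little more than counting noise, and each pair was summed to 1 library, so n = 2 in each group and the duplicates are called a and b, an order without meaning. Over named genes, estimated fragments came to 34730074 and 32476672 in the WT libraries and to 39762145 and 44661337 in the T48h rescue libraries, and the other 4 libraries held 35685690 to 65687435. Nothing in the labels says that duplicates came from separate cultures, so the p-values rest on a spread between libraries that may be only technical. Levels are counts per 1e6 (CPM) after TMM scaling, and differences are log2 fold changes ± SE from edgeR with an adjusted p. In RNA from whole aggregates, fewer cells of a type and less RNA per cell cannot be told apart.

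Wdr5 itself stood at 186 and 187 CPM in WT and at 280 and 294 CPM in the T48h rescue. It averaged 30.5 CPM in the KO and 333 CPM in the T12h rescue. Both T48h rescue libraries lay above WT, 0.62 ± 0.07 higher on the log2 scale (edgeR adjusted p = 1.39e-05). Reads of mouse Wdr5 and of the induced human gene cannot be told apart in this value. Among the 5 markers, Rax (eye field) and Sox2 (neural progenitor and pluripotent cells) were lower in the T48h rescue than in WT, while Hand1 (cardiac and extraembryonic mesoderm), Col1a1 (mesenchyme) and Tek (endothelium) were higher. Their library values are given with their groups below, and no marker had overlapping libraries. How many of all genes were without overlap was not counted. A lack of overlap is therefore a description only, here and for the genes below.

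Of 16130 genes tested, 7627 differed between the T48h rescue and WT (47.3%), 3858 of them higher (23.9%) and 3769 lower (23.4%). At least 2-fold differences were called for 1527 higher and 2006 lower genes, whereas limma on log2(FPKM + 1) gave 967 higher and 881 lower. With upper-quartile scaling in place of TMM the split was 3053 higher and 4791 lower, and the median log2 fold change over all genes was -0.16 instead of -0.04, and 38.9% of the calls were then higher against 50.6%. A share of calls in a gene group is read against these percentages. The gene groups described next had median log2 fold changes between -5.71 and 6.04.

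**Figure D1:**
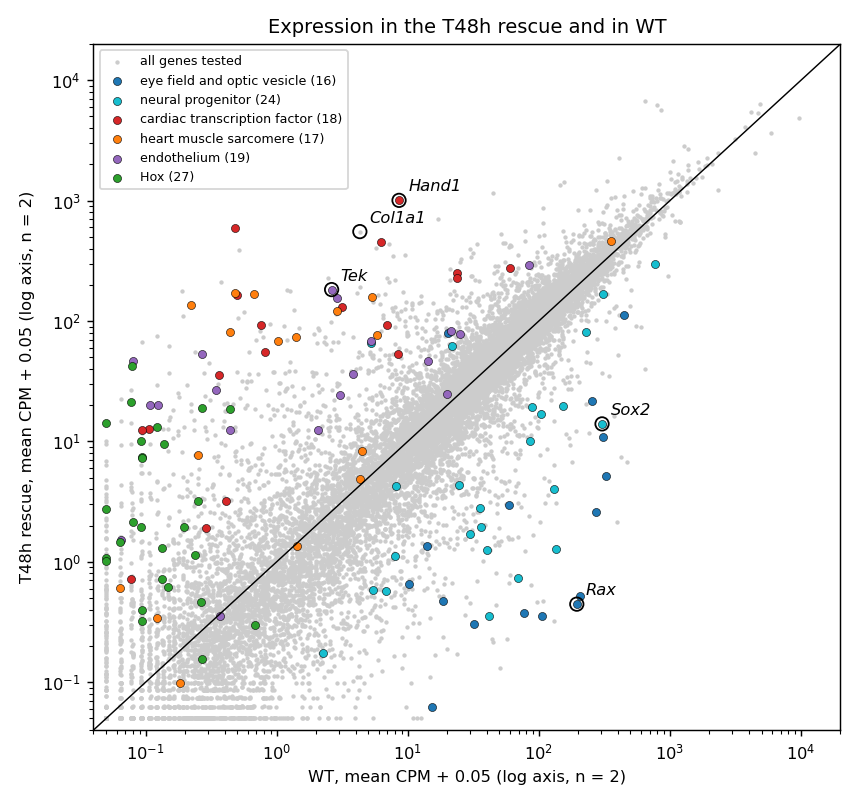
Mean CPM plus 0.05 of each gene tested in WT (x axis) and the T48h rescue (y axis), both on log axes with n = 2 libraries, with 6 gene lists coloured, the number tested in brackets and the 5 markers ringed. Most eye field and neural genes lie below the line of equal expression and most cardiac, sarcomere, endothelial and Hox genes above it.

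The T48h rescue had little RNA of the eye field regulators. Rax (chromosome 18, 65934639 to 65939089 on mm10), the homeobox gene that carries the GFP reporter, stood at 192 and 197 CPM in WT and at 0.545 and 0.245 CPM in the T48h rescue. Both late rescue libraries were near 0, as were those of the KO (mean 0.788 CPM), while the T12h rescue averaged 219 CPM. Against WT the difference was -8.96 ± 0.16 on the log2 scale (edgeR adjusted p = 3e-13). Six6 (chromosome 12, 72939882 to 72944899), a homeobox gene of retina and hypothalamus, had 199 and 210 CPM in WT against 0.327 and 0.613 CPM, a log2 difference of -8.74 ± 0.17 (edgeR adjusted p = 4.91e-13). Six3, a regulator of forebrain and eye, was at 270 and 272 CPM in WT and at 3.02 and 2.08 CPM in the T48h rescue. The groups were far apart for both genes, and reads of the antisense transcript at Six3 cannot be separated because the strand setting is not given in the sources used here.

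Of the 16 eye field and optic vesicle genes tested, 15 fell and 1 rose, and the median was -5.71 on the log2 scale against -0.04 over all genes. Nr2e1, a nuclear receptor of retinal and neural progenitors, fell by 7.88 on the log2 scale. Hmx1, a homeobox gene of the optic region, had 1057 counts in WT and 1 count in the T48h rescue, a 1175-fold ratio (95% counting interval 210.4 to 46442). Pax6, the eye selector gene, had 333 and 289 CPM in WT and 11.4 and 10.4 CPM in the T48h rescue, while it averaged 1.02 CPM in the KO. Its late rescue libraries were thus below both WT libraries and above the KO mean, with log2 fold changes of -4.84 ± 0.13 against WT (edgeR adjusted p = 5.7e-12) and 3.32 against KO (edgeR adjusted p = 2.14e-09). Tbx3, a T-box gene that is used in ventral eye as well as in heart and limb, was the riser, from 20.9 and 19.5 CPM to 74.5 and 84.7 CPM. Sfrp1, a secreted Wnt antagonist, fell from 447 and 451 CPM to 116 and 109 CPM. Summed over the 16 genes, the late rescue had 239.9 and 238.3 CPM, WT 2404 and 2311, the T12h rescue 2787 and 2863, and the KO 199.9 and 191.9. Sfrp1 and Tbx3 made up most of the sum in the late rescue.

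Among 24 neural progenitor genes 22 fell and 2 rose (median log2 fold change -3.21). Sox2, a factor of neural progenitors and pluripotent cells, had 308 and 299 CPM in WT and 14.6 and 13.3 CPM in the T48h rescue. Its KO mean of 122 CPM lay between them, so the late rescue stood below both the WT and its own parent group, with log2 fold changes of -4.45 ± 0.09 against WT (edgeR adjusted p = 5.68e-13) and -3.13 against KO (edgeR adjusted p = 6.14e-12). The related neural factors Sox1 and Sox3 fell by 3.09 and 5.04 on the log2 scale. Pax2, expressed in optic stalk and midbrain, went from 132 and 136 CPM to 0.817 and 1.62 CPM, and the forebrain gene Fezf1 from 68.7 and 69.4 CPM to 0.354 and 1 CPM. Irx3, an Iroquois homeobox gene of hindbrain, spinal cord and mesoderm, and Ncam1, a cell adhesion molecule that mesoderm also expresses, were the genes that rose, by 3.65 and 1.5. For genes of neurogenesis and neurons 8 of 15 fell and 1 rose (median -1.58). Syt1, a synaptic vesicle protein, fell by 5.92, and Gap43, a growth cone protein, rose by 0.86. Stmn2 and Elavl4, both neuronal, were not called, with log2 fold changes of 0.27 and -0.62.

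Cardiac transcription factors showed the opposite pattern: 17 of 18 rose and none fell (median log2 fold change 5.79). Hand1 (chromosome 11, 57828713 to 57832147), a basic helix-loop-helix factor of heart, lateral plate and extraembryonic mesoderm, stood at 9.35 and 7.72 CPM in WT and at 1043 and 966 CPM in the T48h rescue. No other group came near: the KO averaged 12.3 and the T12h rescue 5.22 CPM. Its log2 fold change was 6.88 ± 0.18 against WT (edgeR adjusted p = 5.7e-12) and 7.60 against the T12h rescue (edgeR adjusted p = 2.94e-12). Hand2 (chromosome 8, 57320983 to 57324517), its partner in heart and limb, had 0.333 and 0.534 CPM in WT and 618 and 577 CPM in the T48h rescue, a log2 difference of 10.4 ± 0.20 (edgeR adjusted p = 5.24e-13). On the deposited FPKM scale, which corrects for length, Hand1 averaged 484 and Hand2 240 in the T48h rescue.

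Gata5, a GATA factor of heart and endoderm, had 0.444 and 0.445 CPM in WT and 158 and 170 CPM in the T48h rescue, and the T-box factor Tbx20 had 5.74 and 6.62 CPM against 434 and 468 CPM. Both were low in all 6 other libraries. Gata4 and Gata6, which heart and endoderm share, were already measurable in WT and rose by 2.19 ± 0.08 and 3.39 ± 0.09 on the log2 scale (edgeR adjusted p = 1.07e-10 and 6.39e-12). They also stood at 216 and 121 CPM on average in the KO, which has little Hand1 or Gata5. Myocd, the myocardin coactivator of serum response factor, rose from 0.666 and 0.742 CPM to 77.6 and 107 CPM. Nkx2-5, an early heart homeobox factor, reached only 10.9 and 14.1 CPM, and Isl1, a factor of the second heart field, 53.3 and 57 CPM, both from under 1 CPM in WT. Tbx18, an epicardial and sinus factor, was the member that missed the threshold, at 2.21 and 1.52 CPM against 0.444 and 0.0297 (edgeR adjusted p = 0.0504).

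**Figure D2:**
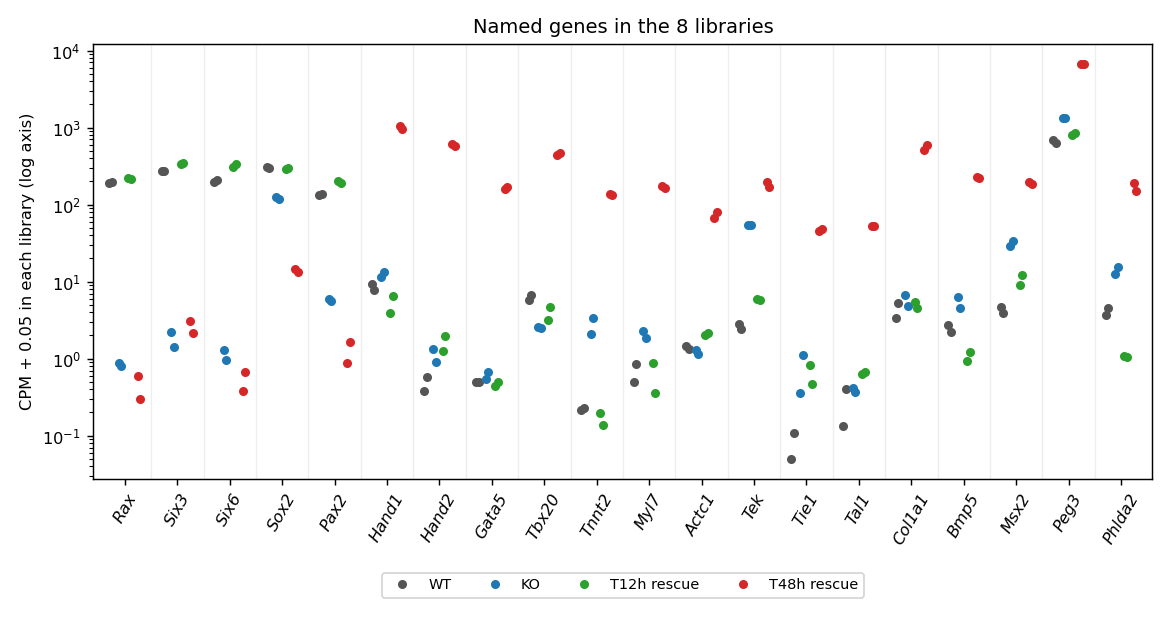
CPM plus 0.05 on a log axis for 20 named genes in each of the 8 libraries, 1 point a library and 2 in each group. For the eye field genes Rax, Six3 and Six6 the T48h rescue lies with the KO, and for Hand1, Hand2, Gata5, Tnnt2, Col1a1 and Bmp5 it lies above all 6 other libraries.

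Genes of the heart muscle sarcomere rose in 13 of 17 cases and fell in none (median log2 fold change 5.01). Tnnt2 (chromosome 1, 135836315 to 135852268), cardiac troponin T, had 0.166 and 0.178 CPM in WT and 138 and 133 CPM in the T48h rescue, a log2 difference of 9.59 ± 0.27 (edgeR adjusted p = 9.75e-12). Tnni1, the slow skeletal troponin I of the embryonic heart, went from 0.471 and 0.386 to 176 and 165 CPM. The atrial light chain Myl7 (chromosome 11, 5896637 to 5898782) rose by 8.09 ± 0.26 and Myl4, an embryonic and atrial light chain, by 7.70 ± 0.24 (edgeR adjusted p = 2.85e-11 and 1.9e-11). Actc1 (chromosome 2, 114047282 to 114052875), cardiac alpha-actin, had 1.41 and 1.28 CPM in WT and 66.2 and 80.1 CPM in the T48h rescue. For each of these the late rescue libraries were above all others. The locus that joins Myh6 and Myh7, the cardiac myosin heavy chains, rose by 4.91, but the table does not separate the pair. Ttn, the giant sarcomere protein titin, and Ryr2, the cardiac calcium release channel, rose by 5.42 and 3.72. Myl2, the ventricular light chain, was called higher at 0.98 and 0.123 CPM in the T48h rescue. The 4 members not called were Tnni3, the adult troponin I (-0.07), Actn2, sarcomeric alpha-actinin (0.16), and the natriuretic peptide genes Nppa and Nppb (-1.33 and 1.99), and Pln, phospholamban, was too low to be tested.

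Promoter sequences of 4 of these genes are shown as examples that hold a motif, so their all having 1 is no result. Each is the 250 bases before the start that RefSeq annotates on GRCm38.p6. For Tnnt2 the start whose window holds a motif was taken. Heart genes are known targets of GATA factors and of serum response factor, and counts over whole lists follow the sequences. Capitals mark the GATA motif AGATAA, searched on both strands, in Hand2 and Tnnt2, and the CArG box, the motif of serum response factor, in Actc1 and Myl7. No motif overlaps another. The windows are chr8:57320733-57320982 (plus strand) for Hand2, chr1:135836084-135836333 (plus strand, 1 of 2 annotated starts) for Tnnt2, chr2:114052876-114053125 (minus strand) for Actc1 and chr11:5898783-5899032 (minus strand) for Myl7.
Hand2: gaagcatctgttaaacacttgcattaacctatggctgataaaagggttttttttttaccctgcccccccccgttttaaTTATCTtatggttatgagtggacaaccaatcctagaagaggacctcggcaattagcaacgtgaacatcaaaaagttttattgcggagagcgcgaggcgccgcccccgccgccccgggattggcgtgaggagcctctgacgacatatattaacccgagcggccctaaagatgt
Tnnt2: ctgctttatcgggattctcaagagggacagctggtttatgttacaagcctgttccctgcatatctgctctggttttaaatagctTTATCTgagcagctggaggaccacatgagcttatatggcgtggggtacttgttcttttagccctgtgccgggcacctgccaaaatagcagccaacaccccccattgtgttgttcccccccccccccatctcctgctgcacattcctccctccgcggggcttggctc
Actc1: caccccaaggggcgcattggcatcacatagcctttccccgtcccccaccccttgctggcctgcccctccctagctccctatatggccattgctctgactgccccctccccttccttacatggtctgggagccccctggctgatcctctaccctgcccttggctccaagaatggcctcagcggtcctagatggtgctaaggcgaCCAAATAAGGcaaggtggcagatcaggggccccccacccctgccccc
Myl7: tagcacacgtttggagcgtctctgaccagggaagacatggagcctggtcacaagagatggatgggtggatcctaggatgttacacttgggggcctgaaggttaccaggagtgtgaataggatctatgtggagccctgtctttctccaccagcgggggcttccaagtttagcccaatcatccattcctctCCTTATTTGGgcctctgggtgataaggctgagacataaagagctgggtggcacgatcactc

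The GATA motif lies 172 to 167 bases before the start of Hand2 and 166 to 161 before that of Tnnt2. The CArG box lies 47 to 38 bases before the start of Actc1 and 61 to 52 before that of Myl7. Among 32851 promoter windows of all genes in the table, 9.99% held the GATA motif and 1.47% a CArG box. Of 22 windows of 18 sarcomere genes, 4 held the GATA motif and 3 a CArG box, the former in Myl2, Nppb, Pln and Tnnt2 and the latter in Actc1, Myl3 and Myl7. Of 12 windows of 10 cardiac transcription factor genes, 2 held the GATA motif (Hand2 and Tcf21) and 1 a CArG box (Mesp1). The GATA motif was in 2 of 17 endothelial windows and in 2 of 19 eye field windows, and no CArG box was found in either set. These matches describe the letters of the windows only.

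Smooth muscle genes rose in 10 of 12 cases (median log2 fold change 1.32). Acta2, smooth muscle actin, which early heart muscle also expresses, had 63.2 and 59.3 CPM in WT and 443 and 396 CPM in the T48h rescue, and the intermediate filament gene Des 9.54 and 8.73 against 170 and 179 CPM. Myh11, the definitive smooth muscle myosin, was at 1.31 and 0.564 CPM in the late rescue and was not called. Mesenchyme and matrix genes, which would also mark fibroblast feeder cells, rose in 19 of 24 cases and fell in 1 (median 2.60). Col1a1 (chromosome 11, 94936224 to 94953042), a chain of type I collagen, stood at 3.33 and 5.19 CPM in WT and at 507 and 599 CPM in the T48h rescue, a log2 difference of 7.03 ± 0.19 (edgeR adjusted p = 7.35e-12). The fibronectin gene Fn1 went from 422 and 394 CPM to 2286 and 2207 CPM, and the intermediate filament gene Vim from 147 and 141 to 1439 and 1247 CPM. All these libraries were higher than their WT counterparts without overlap. Snai2, a repressor of epithelial genes, and Fbn1, fibrillin, rose by 5.35 and 3.49. The gene that fell was Sparc, a matrix glycoprotein, by 0.85. The 4 members not called were Col6a3, Lum, Thy1 and the locus that joins Zeb2 with a microRNA, and Fap, which had 0 counts in the T48h rescue, was too low to be tested.

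Endothelial genes rose in 18 of 19 cases and fell in none (median log2 fold change 3.70). Tek (chromosome 4, 94739086 to 94874976), the angiopoietin receptor, had 2.75 and 2.40 CPM in WT and 195 and 170 CPM in the T48h rescue. The KO also carried it, at 54.6 CPM on average, and the T12h rescue had 5.79 CPM. The log2 fold change was 6.14 ± 0.13 against WT (edgeR adjusted p = 6.92e-13) and 1.74 against the KO (edgeR adjusted p = 2.85e-09). Its orphan relative Tie1 had 2 counts in WT and 45 and 47.9 CPM in the T48h rescue, a 1623-fold ratio (95% counting interval 449 to 13409). Cdh5, the endothelial cadherin, rose by 5.79 and Tal1, a factor of endothelium and blood, by 7.91. Kdr, the VEGF receptor, was already at 85.1 and 82.3 CPM in WT and rose to 283 and 296 CPM, while the KO averaged 1.89 CPM. Robo4, a receptor of mature vessels, was the member not called.

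Blood genes did not follow to the same level. Of 11 tested, 4 rose and none fell (median 0.87 on the log2 scale), and the calls were Itga2b, an integrin of platelets and early progenitors (4.03), Gfi1b (3.6), Nfe2 (3.09) and Epor (1.69), the latter 3 factors or receptors of the erythroid and megakaryocyte lineages. Gfi1b was not called without any 1 of the 4 libraries compared (edgeR adjusted p 0.0515 to 0.288), Nfe2 not without WT b or either T48h rescue library (0.064 to 0.206), and Epor not without WT b (0.0518). Itga2b reached 9.78 and 9.02 CPM. The embryonic globin gene Hba-x was at 0 and 0.049 CPM, Hbb-bh1 at 0.327 and 0.392 CPM, and Ptprc, the common leukocyte antigen, had 0 counts in the T48h rescue.

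All 14 lateral plate mesoderm genes rose (median log2 fold change 4.92, or 4.27 with the genes at 0 in WT set to their bounds). Hand1, Hand2, Twist1, Msx1, Msx2, Bmp4, Ets1 and Hoxb6 among them also belong to other lists. Msx1 and Msx2, homeobox targets of BMP signals, went from 7.43 and 6.26 CPM to 231 and 225 CPM and from 4.69 and 3.83 CPM to 198 and 184 CPM. Both T48h rescue libraries exceeded every other library for these genes.

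In the BMP pathway 14 of 19 genes rose and 2 fell (median log2 fold change 1.41). Among the ligands, Bmp5 (chromosome 9, 75775365 to 75900316) stood at 2.66 and 2.2 CPM in WT and at 229 and 223 CPM in the T48h rescue, a log2 difference of 6.54 ± 0.17 (edgeR adjusted p = 4.97e-12). Bmp4 rose by 2.98 ± 0.10 (edgeR adjusted p = 5.24e-11), from 23.3 and 21.8 to 181 and 174 CPM, while Bmp7 was not called (0.21 ± 0.13). The feedback inhibitors of the pathway, which its signal induces, also rose: Smad6 by 3.56 and Bambi, a decoy receptor, by 3.72. Of the Id genes, which are direct targets in many cells, Id2 and Id3 were not called, at 0.21 and -0.00043. The extracellular antagonists Chrd and Grem1 were the genes that fell, by 1.65 and 5.16, while Nog, another such antagonist, was called higher.

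Hox genes, which set position along the trunk, rose in 21 of 27 tested cases and fell in none. Their median log2 fold change was 6.04, or 5.37 with genes at 0 in WT set to their bounds. The other 12 of the 39 Hox genes were too low to be tested, so the 27 had passed a filter on low counts, and a gene near 0 in WT could pass mainly where the T48h rescue or the KO was high. Hoxb2 (chromosome 11, 96351632 to 96354020) had 2 counts in WT and 43.9 and 40.5 CPM in the T48h rescue, a 1468-fold ratio (95% counting interval 406 to 12123). Hoxb6 had 0 counts in WT and 13.1 and 15 CPM in the late rescue, at least 327-fold higher. Hoxb3 and Hoxb4 reached 19 and 18.7 CPM in their lower T48h rescue library. In WT and in the T12h rescue no Hox gene averaged above 1 CPM, and the 39 genes together summed to 183.5 and 183.2 CPM in the late rescue against 3.217 and 3.354 CPM in WT. Within the late rescue Hoxb2, Hoxb3 and Hoxb4 had the highest CPM of the Hox genes, and Hoxb13 and Hoxc12 had 0 counts. Hoxb9 ran differently, at 1.03 and 1.15 CPM in the late rescue and 6.26 CPM on average in the KO.

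**Figure D3:**
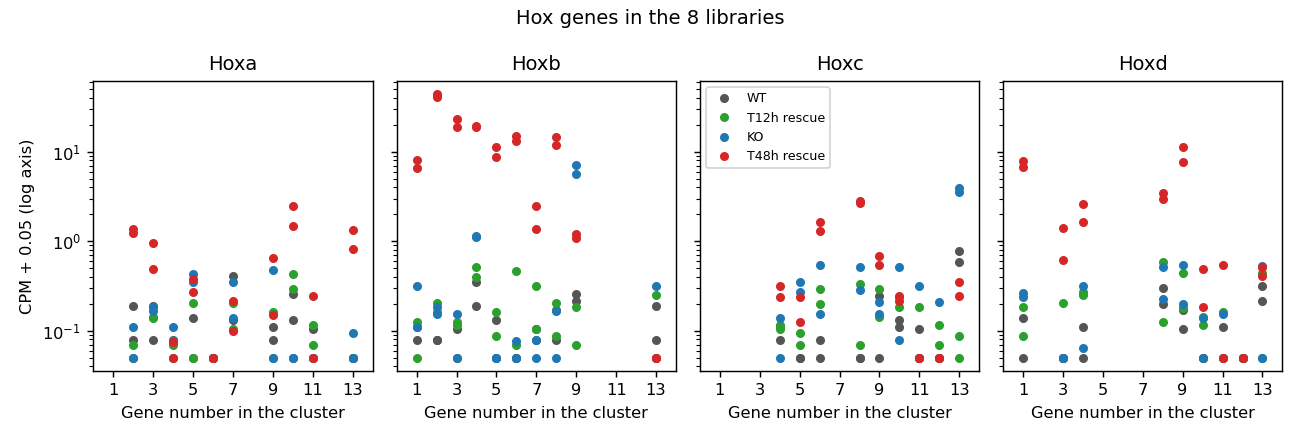
CPM plus 0.05 on a log axis of Hox genes in the 8 libraries, by cluster (panels) and by gene number along the cluster (x axis), with 2 points in each group. The T48h rescue (red) lies above the other groups at Hoxb1 to Hoxb8, Hoxc8, Hoxd1 and Hoxd9, and the KO above it at Hoxb9 and Hoxc13, among others.

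Wnt pathway genes split, with 10 of 20 higher and 7 lower. Wnt2 (a ligand of the cardiac and lung mesoderm) had 5 counts in WT and 77.3 and 74 CPM in the T48h rescue, and Wnt3, a ligand of the primitive streak, rose from 0.333 and 0.356 to 13 and 16.2 CPM. Among the members that fell were the ligands Wnt7b and Wnt5b, by 5.28 and 3.63. Fzd5, which the eye field uses, went from 409 and 432 CPM to 6.81 and 7.92 CPM (-5.83 ± 0.10, edgeR adjusted p = 1.37e-13). The secreted antagonist Sfrp2 fell by 4.52. Among genes of the Hedgehog, retinoic acid and Notch pathways 11 of 22 fell and 4 rose. Aldh1a3, the retinaldehyde dehydrogenase of the eye, went from 138 and 124 CPM to 0.272 and 0.270 CPM, and the retinol transporter Stra6 fell by 3.74. The Notch ligand Dll1 and the target Hes1 fell by 2.67 and 2.23, whereas Hey2, a Notch target of heart and vessels, rose from 2.30 and 3.00 to 66.4 and 66.2 CPM. Cyp26a1, which breaks down retinoic acid, and Notch2 were not called (log2 fold changes of -0.09 and -0.05).

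Markers of other cell types that the aggregates could hold were examined next. Of the primitive streak genes 8 of 16 rose and 1 locus, Lefty1 joined with Lefty2, fell (median log2 fold change 1.84). The KO had 13 of these 16 higher than WT and none lower (median 3.35), where 31.7% of all genes were higher and 32.4% lower. Against the KO, 1 was higher and 7 were lower in the late rescue, where 34.2% of all genes were higher and 33.2% lower. Evx1, Lhx1, Cdx2 and Fgf8, which streak and early mesoderm express, rose to between 4.14 and 18.2 CPM, while T (Brachyury), the defining streak factor, was at 0.381 and 0.123 CPM. Paraxial mesoderm genes gave 3 higher and 2 lower calls of 12, and Msgn1, listed with the streak genes, and Ripply2 had 0 counts in every library. Foxc1, shared by paraxial and other mesoderm, rose by 3.11, whereas Meox1, Pax7 and Tcf15 each lost their call in 3 of the 4 fits without 1 library of WT or the T48h rescue (edgeR adjusted p 0.0503 to 0.342). Neural crest genes rose in 7 of 13 cases and fell in 2, but Msx1, Snai2, Ets1 and Twist1 among the risers are shared with mesoderm. Sox10, the defining crest factor, rose by only 1.04, to 8.88 and 8.50 CPM, and Sox9 fell by 2.11.

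Endoderm genes were higher in 10 of 19 cases and lower in 4. The risers with the smallest adjusted p were Gata4, Gata6 and Sox7, which mesoderm or endothelium also express, whereas Foxa2 was not called (log2 fold change of 0.06). Genes of visceral endoderm went both ways: Apob, an apolipoprotein, and Ttr, transthyretin, rose by 1.21 and 0.79. Lama1 and Lamb1, laminin chains that parietal and visceral endoderm make in quantity, fell by 2.03 and 0.88, and Afp, the fetal albumin of visceral endoderm, fell by 5.12. Trophoblast genes gave 5 higher and 5 lower calls of 13 (median log2 fold change -0.74). The former are Cdx2, Gata3, Krt8, Krt18 and Hand1, none of them confined to trophoblast, and Elf5 and Prl3d1 had 0 counts in the T48h rescue. Epithelial genes rose in 7 of 13 cases and fell in 1. The KO had 12 of these 13 higher than WT, and against the KO 2 were higher and 9 lower in the late rescue. Shares over all genes in both comparisons are given above with the streak genes. Krt8 and Krt18, keratins of simple epithelia and of early mesoderm and heart, rose by 3.72 and 2.83. Krt14, a keratin of stratified epithelia, had 0 counts in WT and 2.64 and 0.858 CPM in the T48h rescue, at least 40.7-fold higher, and Grhl2, an epithelial transcription factor, rose by 1.17. Cdh1, the epithelial cadherin, was at 62.7 and 54.8 CPM in WT and at 63.1 and 70.9 CPM in the T48h rescue, and it was not called, nor were the claudins Cldn6 and Cldn7.

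Pluripotency genes fell in 13 of 18 cases and rose in 1 (median log2 fold change -2.11). Pou5f1, the central pluripotency factor, stood at 22 and 21.4 CPM in WT and at 2.61 and 4.8 CPM in the T48h rescue. The KO was far above both, at 231 CPM on average, and the T12h rescue averaged 6.67 CPM. Nanog and Zfp42 fell by 2.28 and 3.22, Esrrb and Utf1 by 3.95 and 3.73. The gene that rose was Dnmt3b, a de novo DNA methyltransferase, by 0.26, and no member was called higher with upper-quartile scaling, without WT b or without T48h rescue b. Klf4, Sall4 and Tdgf1 were not called, at -0.03, 0.15 and -0.32.

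Imprinted genes were higher in 16 of 24 cases and lower in 3 (median log2 fold change 0.58). Peg3 (chromosome 7, 6703892 to 6730462), a paternally expressed zinc finger gene, had 679 and 622 CPM in WT and 6739.5 and 6738 CPM in the T48h rescue, a log2 difference of 3.37 ± 0.07 (edgeR adjusted p = 8.6e-13). H19, a maternally expressed noncoding RNA abundant in mesoderm and endoderm, went from 891 and 690 to 6466 and 5915 CPM, and Peg10 from 820 and 885 to 5781 and 5447 CPM. For all 3 genes the T48h rescue libraries lay above both WT libraries. Phlda2, a maternally expressed growth restraint gene of placenta, rose by 5.38 ± 0.16 (edgeR adjusted p = 1.9e-11). Igf2r, Mest and Igf2 fell, by 2.31, 0.85 and 0.72, so that H19 and its neighbour Igf2 were called in opposite directions. The table does not separate alleles, so these are total levels.

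Lists of general cell state had median log2 fold changes between -0.13 and 0.40. Hypoxia and glycolysis genes and stress response genes were nevertheless called higher more often than all genes (53.85% and 56.25% against 23.9%). Of the COMPASS/MLL genes 7 of 19 rose and 3 fell, and the median log2 fold change was 0.08, which turned to -0.05 with upper-quartile scaling, where 3 rose. Between 2 and 4 rose without WT a, WT b or T48h rescue b. Ash2l, a core subunit encoded on chromosome 8, rose by 0.50 ± 0.07 (edgeR adjusted p = 5.34e-05), while Psip1 and Wdr82 fell by 0.50 and 0.29. p53 target genes gave 6 higher and 8 lower calls of 25, and Cdkn1a, the p21 inhibitor, was at 63.1 and 68 CPM in WT and at 66.2 and 72.4 CPM in the T48h rescue. It was not called here, whereas the KO averaged 291 CPM. Of the hypoxia and glycolysis genes 14 of 26 rose and 3 fell (median 0.23), with the largest rises for Aldoc (1.67), Ndrg1 (1.27) and Pfkp (1.20). Cell cycle genes gave 8 higher and 4 lower calls of 24, and their median of 0.09 turned to -0.03 with upper-quartile scaling, where 7 fell. Ccnd1 fell by 1.17 and Cdk6 rose by 2.1, both G1 regulators, while Pcna and Cdc20 were not called. Stress response genes rose in 9 of 16 cases and fell in 2, with Jun, a subunit of the AP-1 factor, at 0.95.

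**Figure D4:**
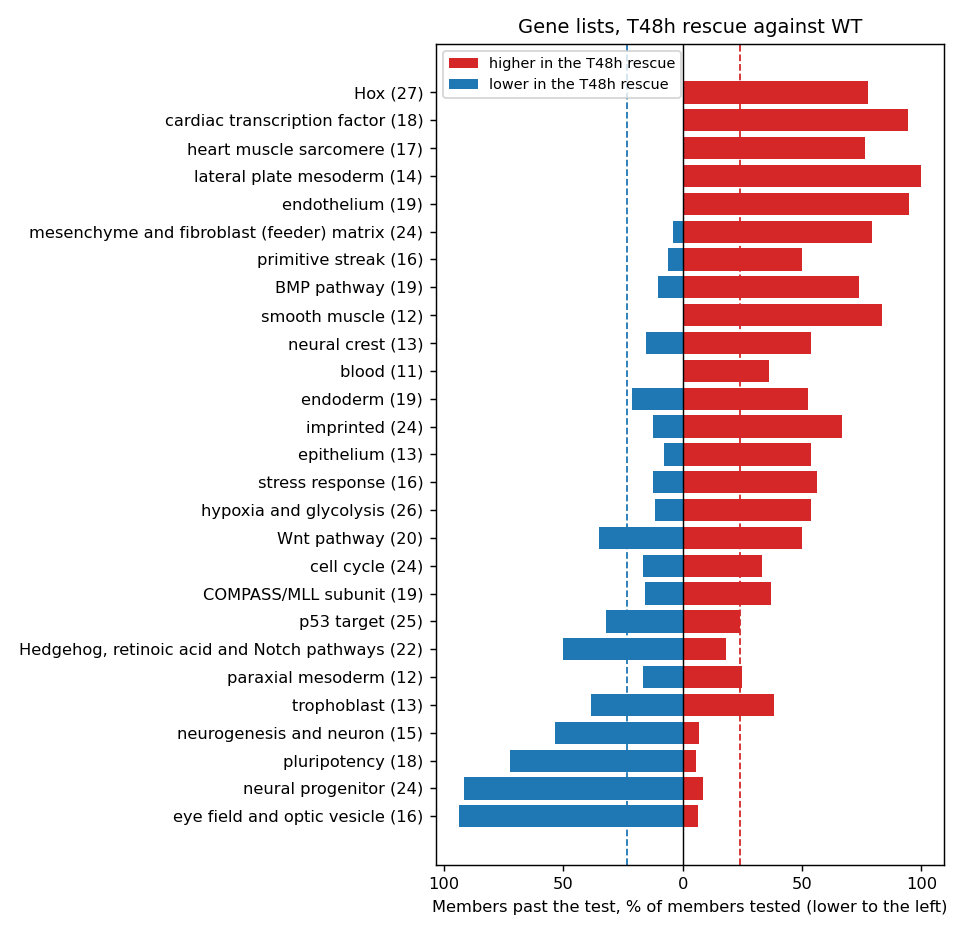
Share of the tested members of each gene list (number tested in brackets) that were called higher (right, red) or lower (left, blue) in the T48h rescue than in WT, ordered by median log2 fold change. The dashed lines mark the shares over all genes tested, 23.9% higher and 23.4% lower.

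The difference between the late and the early rescue was tested directly, with the T48h against the T12h rescue, since both are set against the same WT libraries. In that test 8100 of 16130 genes were called (50.2%), 4014 of them higher (24.9%) and 4086 lower (25.3%) in the late rescue. All 18 cardiac transcription factors were higher, with a median log2 fold change of 6.21, or 5.72 with genes at 0 at their bounds. Of 19 endothelial genes 17 were higher, as were 19 of 24 mesenchyme and 22 of 27 Hox genes. Eye field genes were lower in 15 of 16 and neural progenitor genes in 19 of 24 cases. Neural crest genes, with 11 of 13 higher, include Tfap2b, a crest and ectoderm factor, which was at 9.15 and 6.05 CPM in WT and 12.8 and 10.2 CPM in the T48h rescue, but averaged 1.75 CPM in the T12h rescue. Wdr5 itself had a log2 fold change of -0.21 between the rescues (edgeR adjusted p = 0.0285).

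Against the KO without doxycycline, 10862 of 16130 genes were called (67.3%), 5509 higher (34.2%) and 5353 lower (33.2%). Cardiac transcription factors, mesenchyme and Hox genes separated the late rescue from its parent group too: 16 of 18, 19 of 24 and 20 of 27 were higher, and 0, 2 and 2 lower. Of 17 sarcomere genes 11 were higher and 3 lower than in the KO. The KO itself had 11 of these 17 higher than WT (median log2 fold change 1.87), against 31.7% of all genes. Pluripotency genes were lower in 17 of 18 cases, p53 targets in 23 of 25 and neural progenitor genes in 12 of 24, with 1, 1 and 7 higher. Eye field genes were low in both, with 4 higher and 6 lower of 16 and a median log2 fold change of -0.17. Six3 and Nr2e1 were not called in this comparison, at 0.45 (edgeR adjusted p = 0.0659) and -0.63 (edgeR adjusted p = 0.0852). Endoderm genes were lower in 12 of 19 and higher in 7. The laminin gene Lama1 averaged 4956 CPM in the KO and stood at 208 and 269 CPM in the T48h rescue.

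The largest differences of single genes repeated these groups and added others. Besides Hand2, Tnnt2, Tie1, Hoxb2, Hoxb6 and Wnt2, the 15 largest increases were of Hspb7, a small heat shock protein of heart muscle, Alpk2, an alpha-kinase, Cfc1 (Cryptic, a Nodal coreceptor), Rgs5, a pericyte regulator of G protein signalling, Bnc1 (basonuclin), Tdo2, the liver tryptophan dioxygenase, and Amer3, Oit3 and Rubie. Hspb7 and Oit3 had 0 counts in WT and were at least 232-fold and 222-fold higher. Rgs5 reached 381 and 403 CPM from 0.582 and 0.356 CPM, and Cfc1 169 and 188 CPM from 0.222 and 0.0594 CPM. The 15 largest decreases included, beside eye field genes, the noncoding RNA Rmst, the adhesion molecules Cntn6 and Nlgn1, the channel gene Trpm3, and Lmo3, Mab21l1 and Fam181a. Rmst, Cntn6 and Fam181a had 0 counts in the T48h rescue and were at least 327-, 301- and 140-fold lower. Further loci that carry the names Sox21 and Six6 also belonged to these 15, and reads may be shared between them and the main loci.

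Genes of chromosome 8 were higher more often than those of other chromosomes. Of 852 tested there, 434 were higher (50.9%) and 103 lower (12.1%), with a median log2 fold change of 0.39. On all other chromosomes together 3424 of 15278 were higher and 3666 lower, with a median of -0.06. The KO and the T12h rescue, which share the KO background, had chromosome 8 medians of 0.49 each against WT, and the T48h rescue against the KO had -0.08. Ash2l, on this chromosome, differed by 0.50 and Hand2 by 10.4. The part of this shift in single genes was not tested.

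**Figure D5:**
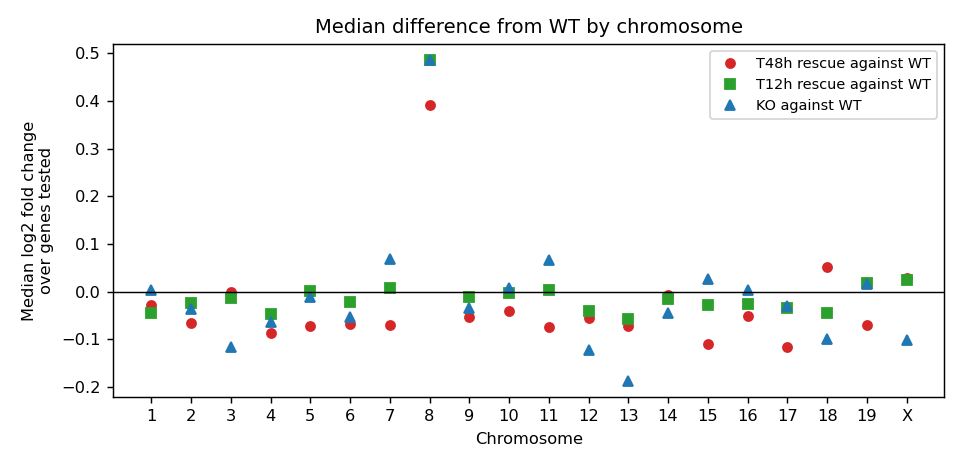
Median log2 fold change against WT over the genes tested on each chromosome (x axis) for the T48h rescue (circles), T12h rescue (squares) and KO (triangles), without chromosome Y. Chromosome 8 stands at 0.39, 0.49 and 0.49, while the other chromosomes of the T48h rescue lie between -0.12 and 0.05.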

How the data were processed

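Per the labels' protocols, RNA came from column kits with DNase and was made into TruSeq libraries. The submitters' processing notes name mm10, Cufflinks 2.2.1, TopHat2 2.1.1, deepTools and SAMtools 1.5. No annotation or strand setting is given in the sources used here. The values of the count table are estimated counts, per the file headers, and were whole multiples (within 0.02 fragments for 92% to 92.7%) of 1 factor a column, between 0.63 and 1.29. This factor was divided out and the estimated counts were rounded. The deposited FPKM, per the file headers, are fragment counts scaled by the authors for length and depth. Here they served for alternatives on log2(FPKM + 1) and log2(FPKM + 0.1) and for levels per length. On that log2(FPKM + pseudocount) scale, fold changes of low genes come out too small. Another 112 companion columns (variances, bounds, status) gave no tested value.

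Of 28432 loci, 5143 without a gene name (3.16% to 6.12% of counts) and 8 marked by the software as too deep (7 of them named) were left out, which kept 23282. The columns name the group but neither run nor duplicate, so technical pairs were found by agreement within a group (chi-square per degree of freedom 1.6 to 1.83 within pairs, 9.08 to 16.5 between) and summed.

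The test was that of edgeR 4.0.16, run in R 4.3.3 (quasi-likelihood, TMM, filterByExpr, all 4 groups in 1 fit, group as the only term, 4 residual degrees of freedom, biological coefficient of variation 12.6%), with Benjamini-Hochberg adjustment over 16130 genes and a threshold of 0.05. On simulated counts for the T48h rescue against WT (15683 genes, 200 changed), 42 of 50 genes raised 2-fold, 37 of 50 lowered 2-fold, 50 of 50 raised 4-fold and 47 of 50 lowered 4-fold were recovered, with 7 false calls. In that simulation the changed genes averaged at least 1 CPM, and counts were drawn from the model that the test assumes. Far fewer genes were changed than were called in the data, so these rates do not carry over to the comparison itself. DESeq2 1.42.0 and limma 3.58.1 served as alternatives. A fold against a group at 0 is a minimum, taken at 3 counts in all of its libraries (0.043 CPM in WT, 0.0387 CPM in the T48h rescue). Intervals of 95% and bounds cover counting error only.

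The 27 gene lists hold 523 entries, all found, 4 by an older symbol. The comparison, its members and the lists were chosen with earlier results of these data known. Named genes were Wdr5, 5 markers, the 15 largest increases and decreases at 5 CPM or more with no overlap between libraries (without unnamed models, microRNAs and small nucleolar RNAs), the up to 5 most significant of each list, and up to 3 with the smallest difference at 5 CPM or more in WT. Of these 181 genes, 121 had a RefSeq promoter. Pax6, Tbx3, Irx3, Ncam1, Gap43, Nkx2-5, Isl1, Tbx18, the Myh6 and Myh7 locus, Myl2, Myl3, Nppa, Nppb, Pln, Ttn, Ryr2, Tnni3, Actn2, Tcf21, Mesp1, Myh11, Col6a3, Lum, Thy1, Fap, Sparc, Kdr, Robo4, Hba-x, Hbb-bh1, Ptprc, Chrd, Grem1, T, Lefty1 with Lefty2, Msgn1, Ripply2, Twist1, Sox10, Afp, Apob, Ttr, Elf5, Prl3d1, Dnmt3b, Mest, Igf2 and some Hox genes lie outside this rule, and their values had been seen when they were chosen. Some genes are not reported here.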

Additional observations from a re-analysis of the deposited data

Results flagged for a closer look

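Among the named genes, 10 stood at least 2-fold above WT in the T48h rescue and at least 2-fold below WT in the T12h rescue, with both differences called in edgeR. Their log2 fold changes against WT in the late rescue were 5.06 for Msx1, 5.35 for Snai2, 3.70 for Pecam1, 1.17 for Grhl2, 6.54 for Bmp5, 4.65 for Hey2, 1.27 for Ndrg1, 1.20 for Pfkp, 1.09 for Cdkn1c and 5.38 for Phlda2. In the early rescue the same genes were at -1.24, -1.04, -1.66, -1.18, -1.27, -1.65, -1.31, -1.45, -1.15 and -1.99, in that order. The log2 difference between the rescues ranged from 2.23 for Cdkn1c to 7.80 for Bmp5. Its direction and a size of at least 2 follow from how these genes were chosen, so it is given as a description. Both rescues are set against the same WT libraries. For each gene the 2 T48h libraries lay above and the 2 T12h libraries below both of WT. The choice of these genes makes such a separation likely, so it too is a description.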

How the results depend on the processing

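Of 144 named genes called in the T48h rescue against WT, 137 kept call and direction under all 14 alternatives that hold them, and none of the 144 reversed. The others were Gfi1b, Tcf15, Meox1, Pax7, Kdm6a, Epor and Nfe2, whose calls were lost in at least 1 of the fits without a library of WT or the T48h rescue. Gfi1b lost its call without any single one of these 4 libraries (edgeR adjusted p 0.0515 to 0.288) and without the filter on low counts (0.0819). Nfe2 lost it without WT b or either T48h rescue library (0.064 to 0.206), and Epor without WT b (0.0518). Meox1 and Pax7 lost theirs without either WT library or T48h rescue a (0.0701 to 0.131), Tcf15 without WT b or either T48h rescue library (0.0503 to 0.342) or with the first technical column only (0.0958), and Kdm6a without either WT library (0.0588 and 0.0653). Fits without 1 library leave a group with 1 sample, which is then assumed to vary like the other groups. They gave 2718 to 3373 higher and 3062 to 3635 lower genes against WT, 2834 to 3519 and 3392 to 3872 against the T12h rescue, and 4978 to 5111 and 4855 to 5138 against the KO. With limma on log2(FPKM + 1), differences of at least 2-fold numbered 967 higher and 881 lower against WT, 1043 and 879 against the T12h rescue, and 1617 and 1977 against the KO, on a scale that shrinks the change of low genes. No paired analysis was possible because the columns carry neither the run nor the replicate number of the labels. Named genes were chosen largely for a small adjusted p or a large difference in this same comparison. The share of them that kept its call therefore describes these genes only, and that share over all called genes was not counted. With 2 libraries a group, small differences and genes under about 1 CPM are the least certain.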

Other observations

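The counts here are over all 23282 loci kept, including unnamed models and further loci with the same name. Of these, 140 had at least 5 CPM in both T48h rescue libraries and under 1 CPM in both WT libraries. Among the 140, 65 were under 1 CPM in the KO and the T12h rescue libraries as well, and 13 reached 5 CPM in both KO libraries. In the other direction 114 loci had at least 5 CPM in both WT libraries and under 1 CPM in both T48h rescue libraries. Of these, 83 were at 5 CPM or more in both T12h rescue libraries and 44 were under 1 CPM in both KO libraries, while 14 reached 5 CPM in both. These counts have no test and depend on the limits of 5 and 1 CPM. How many of all loci pass these limits in the KO or the T12h rescue was not counted, so they are a description only.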
